A study of Homo sapiens and Mus musculus with 28 samples.

Results

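The 2 SCC1 lines with REXO4 knocked out, named R4KO_1 and R4KO_2 in the labels, were compared with each other, gene by gene, under vehicle. The comparison used 6 of the 28 libraries of the series, 3 of R4KO_1 and 3 of R4KO_2, taken by their labels alone. All directions are given as R4KO_2 relative to R4KO_1. SCC1 is an established human squamous carcinoma line of the head and neck, and the series asked what loss of REXO4 does in such tumors. Besides 4 mouse tumor libraries, it holds 24 SCC1 libraries in 8 groups of 3, from polyadenylated RNA. The knockout experiment has 15 of these. They are control cells with vehicle (Ctrl), R4KO_1 with vehicle, R4KO_2 with vehicle, and cells labelled KO_2 given H151 or BX_795, inhibitors of STING and of TBK1 that act on the cytosolic DNA sensing pathway. R4KO_1 and R4KO_2 share the parent line, the targeted gene and the vehicle. The labels do not say whether each is a clone or a pool, which guide was used, what the vehicle was, or what a replicate is. A feature of 1 line can therefore not be told apart from a feature of its guide or its culture, and p-values may measure only technical spread between libraries.

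REXO4 belongs to the DEDD family of RNA exonucleases and is a nucleolar protein. Enzymes of this family trim RNA from its 3′ end, and several act in ribosome assembly, RNA turnover or nucleic acid defence. A second knockout line of the same gene serves as a check on the first, and a direct comparison of the lines shows which transcripts they do not have in common.

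Counts per library ran from 17.47 to 17.69 M in the 6 libraries, so depth differed little between the lines. Levels are given as CPM, a gene's count relative to the library's total after scaling by TMM factors. The squamous label was checked first: 9 of 10 squamous or basal epithelial markers exceeded 1 CPM in all 6 libraries, and their summed level was 3082 to 3722 CPM in R4KO_1 and 3467 to 3589 in R4KO_2. Leukocyte markers summed to 0.36 to 0.84 CPM (1 of 5 at 0 counts), endothelial markers to 1.16 to 2.04, melanocyte markers to 6.32 to 8.07 (1 of 3 at 0) and fibroblast markers, 3 of 5 above 1 CPM, to 38.6 to 42.3. The range of each of these sums overlapped between the lines apart from the leukocyte sums, all under 1 CPM. Among the fibroblast markers COL3A1 (2.24 to 3.54 CPM in R4KO_1, 4.82 to 6.71 in R4KO_2) and LUM (2.36 to 2.89 and 5.44 to 5.76) were each higher in R4KO_2 without overlap, and COL1A1 (31.8 to 37.3 and 26.9 to 30.1) was lower. The 3 R4KO_1 libraries were less alike than the 3 of R4KO_2. Replicates 1 and 3 of R4KO_1 differed by a chi-square of 10.4 per gene, against 2.22 to 4.89 for the other pairs within the 2 lines.

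The distance between the lines was larger than the spread within either. The root mean square log2 difference between a library of R4KO_1 and a library of R4KO_2 had a median of 0.427 (0.404 to 0.455). Within R4KO_1 it was 0.293 (0.264 to 0.348) and within R4KO_2 0.264 (0.257 to 0.265). Each line lay farther from Ctrl, at 0.680 and 0.704. Over the 2000 most variable genes in the 15 libraries, the lines did not overlap on any of the first 3 principal components. The first, 61.7% of the variance, held R4KO_1 at 28.5 to 31.2 and R4KO_2 at 41.0 to 41.6. Ctrl stood there at -8.32 to -6.04 and the drug-treated KO_2 libraries at -32.3 to -31.7. This component thus mostly set both lines apart from the other libraries. The second, 18.9%, held them at -11.8 to -9.29 and at -3.35 to -1.34. The third, 6.43%, held the 3 R4KO_1 libraries at 14.02 to 17.6 and the 3 R4KO_2 libraries at -15.9 to -12.9. Ctrl stood between the lines on the third, at 1.82 to 3.36.

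The targeted transcript was low in both lines and lower in R4KO_2. REXO4 stood at 9.33, 9.99 and 9.43 CPM in R4KO_1 and at 7.05, 7.11 and 5.03 CPM in R4KO_2. All 6 values were far under the 74.99 CPM of Ctrl, and the lines did not overlap. The log2 difference was -0.58 (SE 0.11, edgeR adjusted p = 0.000335). REXO4 overlaps ADAMTS13 and STKLD1 on the other strand, and the strand setting of the counting is not given.

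Across the transcriptome the lines differed at many genes, mostly by little. Of 14348 genes with enough counts, 2160 were higher and 2380 lower in R4KO_2 by edgeR's quasi-likelihood test at a Benjamini-Hochberg adjusted p under 0.05. These 4540 genes are called here, and they are 31.6% of all tested (15.1% higher, 16.6% lower). The counts of called list members given below are to be read against these shares. By 2-fold or more, 140 were higher and 187 lower, 2.28% of all tested. The 6 libraries did not overlap for 5961 genes, 41.5%, of which 4189 were also called. The median difference over all genes was near 0 (-0.0017 on the log2 scale). With R4KO_1 replicate 3 left out, 4663 genes were called, and 3921 of them were among the 4540 in the same direction.

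Several genes were many times higher in R4KO_2, of which HSPA6, ANKRD1, HBEGF and TRAF1 are given with their lists further on. ESM1, which encodes a secreted endothelial-type proteoglycan, stood at 0.0539, 0 and 0.166 CPM in R4KO_1 and at 2.17, 2.03 and 1.77 in R4KO_2. It was at the edge of detection in R4KO_1 and in Ctrl (0.0589 CPM), and present in all 3 libraries of R4KO_2. Its log2 difference was 4.67 (SE 0.42, edgeR adjusted p = 3.42e-08). IL1RL1, the receptor of the alarmin IL-33, was at 1.62, 1.29 and 1.61 CPM in R4KO_1 and 12.9, 13.3 and 9.37 in R4KO_2. The groups were far apart, and the difference was 2.97 (SE 0.19, adjusted p = 3.54e-10). SERPINB2, an inhibitor of plasminogen activators, stood at 3.24, 3.28 and 5.16 CPM against 27.5, 30.1 and 21.9. Ctrl lay between the lines, at 12.3 CPM. IL20RB, a receptor subunit for cytokines of the IL-20 family, went from 19.9 ± 2.67 CPM (SD, n = 3) to 72.3 ± 4.79, a difference of 1.86. CPA4, a carboxypeptidase, TRPV3, a cation channel of keratinocytes, ZBED2, a transcriptional regulator of keratinocytes, and CGB8, which encodes a subunit of chorionic gonadotropin, were higher by 1.40, 1.35, 1.36 and 1.52. CGB8 has near-identical copies, so its count is uncertain. The noncoding RNA LINC00839 had 0 counts over the 3 R4KO_1 libraries and 53 over those of R4KO_2, at least 17.3-fold higher with 3 counts taken for R4KO_1 as a whole.

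The genes lower in R4KO_2 included several that were near absent there. PXDN, a peroxidase that crosslinks collagen IV of basement membranes, stood at 9.01, 7.41 and 8.21 CPM in R4KO_1 and 0.0530, 0.267 and 0.107 in R4KO_2. Its counts over each line were 453 and 8, and Ctrl had 2. The log2 difference was -5.79 (SE 0.25, edgeR adjusted p = 3.63e-13). SLC12A3, the thiazide-sensitive sodium chloride cotransporter of the kidney, was at 11.9, 7.84 and 4.44 CPM in R4KO_1 and 0.265, 0.321 and 0.214 in R4KO_2. The R4KO_1 libraries spread widely, yet each lay far above all 3 of R4KO_2. Ctrl, at 0.217 CPM on average, was as low as R4KO_2. PSTPIP2, an adaptor that binds membranes and actin regulators, was at 12.03, 12.8 and 12.7 CPM against 1.43, 1.497 and 1.071, and its difference was -3.22 (SE 0.13, adjusted p = 1.72e-13). Its level in Ctrl, 1.6 CPM, was near that of R4KO_2. STC1, a secreted glycoprotein hormone, was at 3.94, 3.92 and 5.60 CPM in R4KO_1, 0.477, 1.12 and 1.23 in R4KO_2 and 4.43 on average in Ctrl. Ctrl was thus at the level of R4KO_1 for this gene.

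RIMS4, a synaptic active zone protein, stood at 8.88 ± 0.528 CPM (SD, n = 3) in R4KO_1 and 2.06 ± 0.117 in R4KO_2, and NELL2, a secreted neural glycoprotein, at 14.6 ± 0.784 and 4.07 ± 0.428. Ctrl was nearer to R4KO_2 for both, at 1.54 CPM for RIMS4 and 5.10 for NELL2. POF1B, an epithelial actin-binding protein, stood at 38.6 ± 3.31 CPM in R4KO_1 and 11.2 ± 0.967 in R4KO_2, a difference of -1.78 (edgeR adjusted p = 6.16e-13). EVA1C, SSC4D, PGBD5, TMOD2 and LAPTM5 were lower by between 1.57 and 2.06 on the log2 scale. TMOD2 caps actin filaments, and LAPTM5 is a lysosomal membrane protein known from blood cells. LAPTM5 was at 5.29, 4.35 and 7.54 CPM in R4KO_1 and 1.75, 2.14 and 1.87 in R4KO_2, without overlap, while the summed leukocyte markers stayed under 1 CPM in all 6 libraries. MYL9, a myosin regulatory light chain, had 203 counts over R4KO_1 and 3 over R4KO_2, a ratio of 69.0 after scaling (95% interval 23.3 to 337.1, counting error only). The zinc finger gene ZNF736 had 99 counts against 1 (ratio 100.9, interval 17.7 to 4024), ZNF100 63 against 1, SAMD5 102 against 2, SPATA18 73 against 3 and the cancer-testis antigen MAGEB2 45 against 3. Ctrl had 2, 4 and 1 counts for SAMD5, SPATA18 and MAGEB2, close to R4KO_2, but 54 for MYL9.

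**Figure D1:**
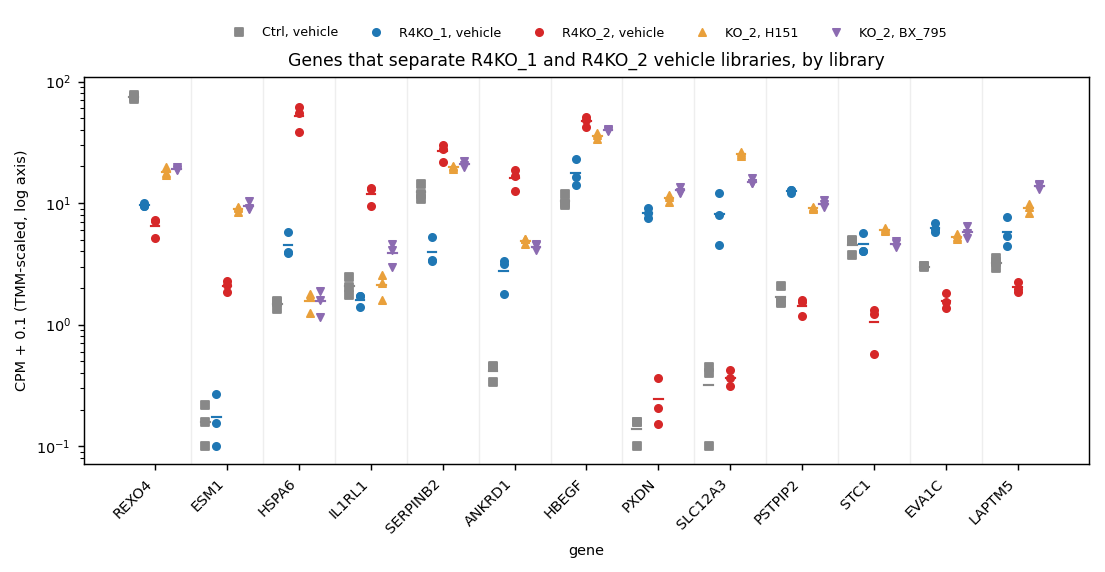
CPM (TMM-scaled, plus 0.1, log axis) of REXO4 and 12 of the genes with large differences in every library of the knockout experiment; each point is a library and each bar the mean of 3. HSPA6 is at 38.1 CPM or more in the R4KO_2 vehicle libraries and at 5.66 or less in R4KO_1, and PXDN is at 7.41 CPM or more in R4KO_1 and at 0.267 or less in R4KO_2.

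Heat shock genes were higher in R4KO_2. These genes encode chaperones and their helpers, which refold damaged proteins, and most are switched on by the factor HSF1 through heat shock elements, inverted repeats of nGAAn units in their promoters. Of 28 tested members, 15 were called higher and 0 lower, against 15.1% and 16.6% of all genes. The median difference was 0.18 and 24 of 28 were positive, where the median of all genes was near 0. HSPA6, an HSP70 gene that is nearly silent without stress, stood at 3.88, 3.76 and 5.66 CPM in R4KO_1 and at 61.04, 55.4 and 38.1 in R4KO_2. Ctrl was lower than both, at 1.38 CPM on average, and every R4KO_2 library was far above every R4KO_1 library. The log2 difference was 3.54 (SE 0.16, edgeR adjusted p = 6.16e-13). HSPA6 has a near-identical neighbour, HSPA7, so some reads may be split between them. DNAJB1, the main HSP40 cochaperone of this response, was at 286, 353 and 451 CPM against 894, 981 and 809. The lines did not overlap, and the difference was 1.30 (SE 0.10, adjusted p = 1.88e-09). DNAJB1 lies in the chromosome 19 block described further on, and it overlaps TECR on the other strand. DNAJB4, another HSP40 protein, differed by 0.50 (adjusted p = 1.22e-07). Among members that did not pass the test, the abundant chaperone genes HSP90AB1, HSP90AA1, HSPD1 and HSPA8 had log2 differences of 0.0011, 0.013, 0.007 and -0.15. These 4, and the genes whose promoters follow, were picked after their values were seen. Without R4KO_1 replicate 3 there were 17 called higher, and over the 6 ways of leaving out 1 library 13 to 17.

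The promoters of 4 genes called higher are shown because they carry heat shock elements, written here as 2 facing units, GAANNTTC or TTCNNGAA, searched on both strands. The sequences are the 250 bases before the start in RefSeq (GRCh38.p14), 5′ to 3′ on the gene's strand, with matches in capitals. HSPA6 lies on the plus strand with this window at chr1:161524290-161524539, HSPA1A on the plus strand at chr6:31815293-31815542, ZFAND2A on the minus strand at chr7:1160197-1160446 and CHORDC1 on the minus strand at chr11:90223050-90223299. HSPA1A encodes an inducible HSP70, ZFAND2A a zinc finger protein that assists the proteasome, and CHORDC1 a cochaperone of HSP90.
HSPA6: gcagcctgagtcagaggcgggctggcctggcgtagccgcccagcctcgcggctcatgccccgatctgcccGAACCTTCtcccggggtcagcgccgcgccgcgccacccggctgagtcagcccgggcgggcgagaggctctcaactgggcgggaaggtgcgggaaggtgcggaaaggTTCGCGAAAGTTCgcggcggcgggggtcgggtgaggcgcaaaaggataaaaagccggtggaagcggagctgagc
HSPA1A: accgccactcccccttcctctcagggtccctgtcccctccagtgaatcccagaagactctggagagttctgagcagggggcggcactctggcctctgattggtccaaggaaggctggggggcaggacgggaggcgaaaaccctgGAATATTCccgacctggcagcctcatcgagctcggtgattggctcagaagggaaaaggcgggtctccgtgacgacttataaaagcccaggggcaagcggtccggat
ZFAND2A: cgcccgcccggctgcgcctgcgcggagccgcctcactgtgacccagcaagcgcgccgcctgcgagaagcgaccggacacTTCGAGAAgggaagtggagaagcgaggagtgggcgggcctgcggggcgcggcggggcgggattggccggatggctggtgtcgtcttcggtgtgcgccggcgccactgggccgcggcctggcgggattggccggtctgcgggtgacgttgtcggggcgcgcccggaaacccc
CHORDC1: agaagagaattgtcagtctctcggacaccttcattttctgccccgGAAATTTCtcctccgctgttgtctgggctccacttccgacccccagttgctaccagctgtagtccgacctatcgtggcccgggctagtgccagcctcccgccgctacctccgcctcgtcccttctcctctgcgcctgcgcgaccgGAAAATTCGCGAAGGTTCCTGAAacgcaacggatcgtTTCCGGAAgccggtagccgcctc
The windows hold 3, 1, 1 and 6 matches, which can overlap. The log2 differences of the 4 genes were 3.54, 0.69, 0.86 and 0.35. HSPA1A, at 473, 556 and 872 CPM in R4KO_1 and 1073, 1133 and 865 in R4KO_2, overlapped between the lines. It shares nearly all its sequence with HSPA1B, which differed by 0.60, so the split of reads between the 2 is uncertain. Over the full RefSeq windows of 300 bases, 10 of the 15 genes called higher held at least 1 of the 2 forms, 66.7%. Of the 10 members not called that had a window, 2 did. The share was 13.7% of all 27305 RefSeq promoters and 10.2% of the 11193 promoters of tested genes. Most members of this list are known to be switched on through this element, so a larger share than in all promoters was likely beforehand. DNAJB1 is among the called genes without a match in its window, which says only that these letters are not there. In other lists, described further on, the elements given here were not more frequent among genes called higher. The TEAD core was in 1 of 8 YAP-TEAD targets called higher and 5 of 9 not called. The interferon response element core was in 4 of 7 interferon-stimulated genes called higher and 21 of 30 not called. An AP-1 site was in 0 of 7 MAPK feedback genes called higher and 1 of 6 not called.

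MAPK feedback genes were higher in R4KO_2 where they were called. The MAPK feedback genes encode phosphatases and adaptors that ERK induces and that restrain it. Of 22 tested, 10 were called higher and 0 lower, with a median of 0.32 and 21 positive. PHLDA1, a growth factor-induced protein, stood at 24.7, 35.9 and 51.8 CPM in R4KO_1 and 77.1, 87.7 and 75.1 in R4KO_2. The R4KO_1 libraries spread over a wide range but stayed under all of R4KO_2, and the difference was 1.10 (SE 0.13, edgeR adjusted p = 2.14e-06). DUSP6, the ERK phosphatase, differed by 0.68, DUSP5 by 0.86, SPRY1 by 0.89 and SPRY4, whose libraries overlapped, by 0.52, named after their values were seen. The count leaned on single libraries: the mean log2 CPM of this list was 3.69, 3.99 and 4.44 in R4KO_1 and 4.42, 4.59 and 4.45 in R4KO_2. Replicate 3 of R4KO_1 was thus level with R4KO_2. Without it 20 of the 22 were called higher, and without replicate 1 of R4KO_1 7 were called higher and 1 lower.

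Among the EGFR family and its ligands, 5 of 13 were called higher and 2 lower, with a median of 0.09. HBEGF, a ligand shed from the cell surface, was at 13.9, 16.3 and 22.8 CPM in R4KO_1 and 48.5, 50.8 and 42.1 in R4KO_2. All R4KO_2 libraries were above all R4KO_1 libraries, and the difference was 1.419 (SE 0.11, edgeR adjusted p = 3.59e-09). AREG, another ligand, stood at 27.0, 32.9 and 45.4 against 71.1, 76.7 and 65.0 CPM, and ERRFI1, an induced inhibitor of the receptor, at 57.2, 77.3 and 93.2 against 153, 174 and 154. Neither gene overlapped between the lines, and they differed by 1.02 and 1.08. The ligands EPGN (-0.55) and NRG2 (-0.79, adjusted p = 0.0325) were lower, and NRG2 lost its call in 8 of 17 alternative settings.

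Targets of YAP and TEAD, the effectors of the Hippo pathway, moved both ways, with 11 of 28 called higher and 5 lower and a median of 0.04. ANKRD1, a nuclear and sarcomeric protein used as a YAP reporter, stood at 1.67, 3.06 and 3.22 CPM in R4KO_1 and 16.6, 18.6 and 12.6 in R4KO_2. The lines were well apart, and Ctrl was at 0.316 CPM. The difference was 2.59 (SE 0.16, edgeR adjusted p = 2.09e-10). F3, tissue factor of the clotting cascade, was at 45.3 ± 11.6 against 107 ± 13.3 CPM (SD, n = 3), and AMOTL1, which binds YAP, differed by 0.43. CRIM1 (-0.37), WWC1 (-0.33) and AXL (-0.17), a receptor kinase, were lower. Of 29 immediate early factors, 9 were called higher and 5 lower, with a median of 0.16. Without R4KO_1 replicate 3 these were 15 and 4, with a median of 0.30, and without its replicate 1 they were 6 and 7, with a median of 0.02. FOSL1, an AP-1 subunit, was at 30.1, 45.8 and 81.5 CPM in R4KO_1 and 101, 121 and 100.5 in R4KO_2. It did not overlap, although R4KO_1 replicate 3 came near. DUSP2, a nuclear phosphatase, was lower by 0.67.

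Stress genes under ATF4 follow the integrated stress response, which raises amino acid supply and transport. Of 32 tested, 16 were called higher and 3 lower, and the median was 0.22. INHBE, a secreted activin subunit, stood at 14.5, 20.2 and 31.1 CPM in R4KO_1 and 40.4, 56.7 and 44.5 in R4KO_2. The groups did not overlap, and the difference was 1.11 (SE 0.16, edgeR adjusted p = 1.54e-05). SESN2, a sestrin that restrains mTORC1, was at 42.2 ± 9.20 against 69.0 ± 8.39 CPM, and CEBPG, a partner of ATF4, differed by 0.37. JDP2, a repressor of AP-1, was at 9.60, 11.1 and 11.6 CPM in R4KO_1 and 5.04, 6.42 and 5.997 in R4KO_2, a difference of -0.89. The 2 chains of the leucine transporter, SLC7A5 and SLC3A2, were lower by 0.21 and 0.20. The list's mean log2 CPM was 6.52, 6.78 and 7.10 in R4KO_1 and 6.98, 7.17 and 7.03 in R4KO_2, so that replicate 3 of R4KO_1 lay inside the range of R4KO_2. Without that library 22 were called higher and 3 lower, with a median of 0.40, and without replicate 1 they were 13 and 4, with a median of 0.11. The unfolded protein response of the endoplasmic reticulum gave 1 of 22 called higher and 5 lower and a median of -0.02. That is 27.3% called, under the 31.6% of all tested. MANF, a secreted factor of this response, was lower by 0.25 and DNAJB9, a cochaperone of the endoplasmic reticulum, higher by 0.24, a call lost in 7 of 18 alternative settings. Without R4KO_1 replicate 3 the counts were 4 higher and 3 lower.

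Cytokines and the feedback targets of NF-kB, the main inflammatory transcription factor, were also examined. Of 25 chemokines and cytokines, 8 were higher and 2 lower, with a median of 0.24 that ran from 0.15 without R4KO_1 replicate 1 to 0.51 without R4KO_2 replicate 1. IL11, a cytokine of the IL-6 family, was at 10.5, 11.5 and 19.1 CPM in R4KO_1 and 24.6, 24.3 and 22.6 in R4KO_2, without overlap, and differed by 0.80. IL7, a lymphocyte growth factor, was lower by 0.69 (edgeR adjusted p = 0.0188). Of 23 NF-kB feedback targets, 8 were higher and 1 lower. TRAF1, a signalling adaptor of TNF receptors, stood at 1.89, 3.12 and 4.55 against 7.21, 9.57 and 8.09 CPM. The difference was 1.38 (SE 0.18, edgeR adjusted p = 5.32e-06). ZC3H12A, an RNase that degrades cytokine mRNAs, was lower by 0.42, but its libraries overlapped, and without R4KO_1 replicate 3 its call was lost. Leaving out that library raised the called-higher count to 12 for both lists, and leaving out R4KO_1 replicate 1 gave 6 and 2 cytokines and 6 and 5 NF-kB targets, higher and lower.

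**Figure D2:**
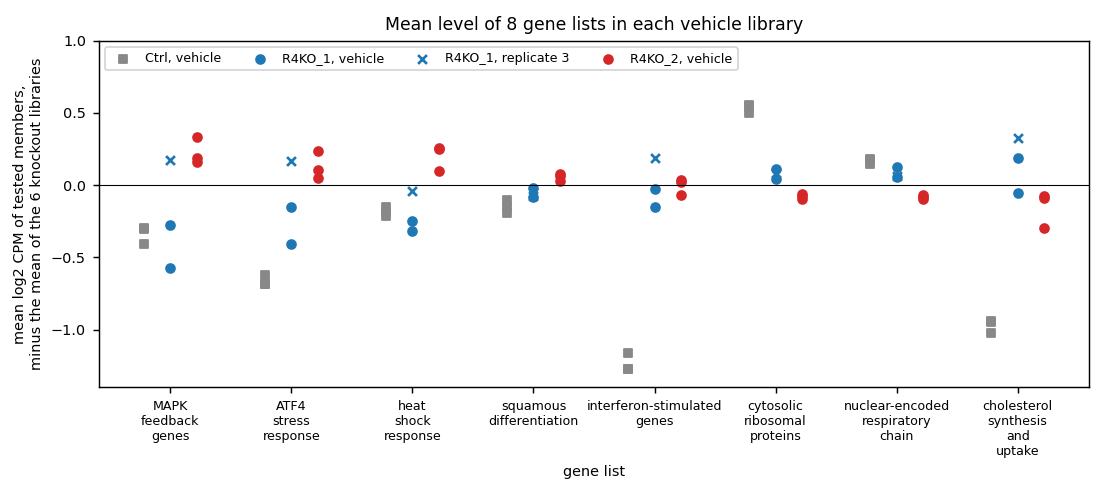
Mean log2 CPM of the tested members of 8 gene lists in each vehicle library, after subtraction of the mean of the 6 knockout libraries; each point is a library and crosses mark R4KO_1 replicate 3. That library is the highest of R4KO_1 for the MAPK feedback and ATF4 lists, at the level of R4KO_2, while ribosomal protein and respiratory chain genes are lower in all 3 R4KO_2 libraries than in all 3 of R4KO_1.

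Basal keratinocyte genes were mostly higher in R4KO_2 where they were called. Basal keratinocyte and adhesion genes anchor cells to the basement membrane and to each other. Of 25 tested, 13 were called higher and 1 lower, with a median of 0.15 and 23 positive. CAV1, the main protein of caveolae, stood at 232, 222 and 224 CPM in R4KO_1 and 352, 344 and 347 in R4KO_2. The 3 values within each line were tight and the lines far apart, and the difference was 0.62 (SE 0.044, edgeR adjusted p = 1.21e-09), with Ctrl above both at 941 CPM. COL17A1, a hemidesmosomal collagen, was at 412, 433 and 456 against 561, 583 and 603 CPM, without overlap, and differed by 0.42. TRIM29 was lower by 0.12 (adjusted p = 0.0321), a call lost in 7 of 18 alternative settings. Squamous differentiation genes, tested for 23 of 47, gave 9 higher and 3 lower and a median of 0.27. The transcription factors ELF3 and GRHL1 differed by 0.38 and 0.67, and KRT6A, a keratin of activated epidermis, by 0.27. SERPINB3 (-1.04) and KRT10 (-0.29), a keratin of suprabasal layers, were lower. The third called lower, the skin protease KLK6 (-0.23, edgeR adjusted p = 0.0485), lost its call in 9 of 18 alternative settings, among them DESeq2 and the replicate block. The median of this list was 0.12 without R4KO_1 replicate 3 and 0.16 without R4KO_2 replicate 1. Of 6 simple epithelial and hair keratins, 2 were lower and 1 higher. KRT7 stood at 222 ± 6.25 CPM in R4KO_1 and 159.8 ± 12.97 in R4KO_2 and KRT8 at 601 ± 23.2 and 539.6 ± 16.7. KRT86, a hair keratin that overlaps KRT7, had 14 counts over R4KO_1 and 33 over R4KO_2 (log2 difference 1.19, edgeR adjusted p = 0.0355), and this call was lost in 7 of 17 alternative settings, DESeq2 among them.

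Mesenchymal and matrix genes differed in both directions, 14 of 48 higher and 11 lower, with a median of 0.03. MMP2, gelatinase A, was at 18.2, 16.1 and 16.2 CPM in R4KO_1 and 36.6, 35.7 and 37.9 in R4KO_2. The lines did not overlap, and the difference was 1.12 (SE 0.07, edgeR adjusted p = 1.38e-10). THBS1, a matricellular protein, and TIMP3, an inhibitor of metalloproteinases, were higher by 0.78 and 0.41. COL5A1, a fibrillar collagen chain, was at 540.5, 553 and 522 against 403, 410.3 and 398 CPM, lower by 0.42, and MFAP5, a microfibril protein, and COL4A6, a basement membrane collagen, were lower by 1.16 and 0.48. SPARC, a collagen-binding matrix protein named after its value was seen, differed by -1.86. Among S100 proteins, S100A4, a calcium-binding protein linked to motility, went from 74.4, 64.5 and 63.3 CPM to 31.2, 33.1 and 31.3, a difference of -1.08 without overlap, and S100P differed by -1.23. S100A10 was lower by 0.27, and S100A13 and S100A16 were higher by 0.33 and 0.14. The fibroblast markers given above were partly higher and partly lower in R4KO_2, and their part in this list was not tested.

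Cytosolic ribosomal protein genes and nuclear-encoded respiratory chain genes were lower in R4KO_2, by small amounts over many genes. Of 77 cytosolic ribosomal protein genes, 48 were called lower and 5 higher, with a median of -0.18. RPS14 stood at 888, 869.9 and 843 CPM in R4KO_1 and 696, 680.2 and 690.5 in R4KO_2. RPL4 was at 1357, 1281 and 1287 against 1063, 1047 and 1102, and RPL13A at 1313, 1293 and 1383 against 1069, 1108 and 1075. In each of these genes all 3 R4KO_2 libraries were under all 3 of R4KO_1, with differences of -0.33, -0.29 and -0.29 (SE 0.033, 0.033 and 0.034). RPL36 and RPS15 were among the 5 called higher, by 0.27 and 0.30. All 5 lie in a block of chromosome 19 of neighbouring genes described further on. Outside such blocks 47 of 71 were lower and 0 higher. Noncoding hosts of snoRNAs, whose transcripts carry the same pyrimidine-rich start as ribosomal protein mRNAs, gave 11 of 23 lower and 1 higher and also a median of -0.18. SNHG3 was at 38.4, 41.9 and 42.2 CPM in R4KO_1 and 25.1, 27.8 and 29.4 in R4KO_2, a difference of -0.57, and GAS5 and SNHG29 differed by -0.29 and -0.28. LINC-PINT, a list member whose standing as a snoRNA host was not checked, was the 1 called higher, by 0.34 (edgeR adjusted p = 0.0305). It lost its call in 9 of 18 alternative settings. SNHG3 spans snoRNA genes and overlaps RCC1, so its count is uncertain. Both lines were under Ctrl for SNHG3 and GAS5, which stood there at 164 and 303 CPM.

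Nuclear-encoded respiratory chain genes, which build the complexes of oxidative phosphorylation, were called lower in 36 of 59 cases and higher in 2, with a median of -0.18. NDUFB5, of complex I, stood at 115, 107 and 103 CPM in R4KO_1 and 87.5, 84.7 and 79.6 in R4KO_2. ATP5F1E, the epsilon subunit of ATP synthase, was at 169, 144 and 158 against 118, 116 and 116. Neither gene overlapped between the lines, and they differed by -0.37 and -0.43. Both lie in blocks of lower genes on chromosomes 3 and 20. NDUFS7 and NDUFB9, also of complex I, were called higher, by 0.28 and 0.13. The 13 mitochondrially encoded mRNAs are listed at 0 in all libraries and give no measure of these complexes' mitochondrial subunits. Mitochondrial ribosomal proteins had 13 of 52 lower, 2 higher and a median of -0.05, with MRPL24 lower by 0.48 and MRPL4 higher by 0.27. Their called share, 28.8%, was under that of all tested genes. Ribosome biogenesis factors, which act in the nucleolus where REXO4 resides, gave 3 of 56 higher and 8 lower, 19.6% against 31.6% of all genes. These counts were 7 higher without R4KO_1 replicate 3, and 5 and 3 lower without R4KO_2 replicates 2 and 3. NPM1, the nucleolar chaperone, was at 1283, 1301 and 1288 CPM in R4KO_1 and 1041, 1031 and 1052 in R4KO_2, lower by 0.31 (SE 0.029, edgeR adjusted p = 5.58e-08). UTP4, a processome subunit, was higher by 0.28. The ribosomal protein median ran from -0.19 to -0.15 over all alternative settings and the respiratory chain median from -0.19 to -0.15.

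Targets of NRF2, the regulator of antioxidant defence, were lower in R4KO_2, with 14 of 30 called lower, 2 higher and a median of -0.15. FTL, the ferritin light chain, was at 2055, 1908 and 2407 CPM in R4KO_1 and 1348, 1502 and 1368 in R4KO_2, and TKT, transketolase, at 672, 663 and 698 and 546, 548 and 560. Both were without overlap, with differences of -0.59 (SE 0.07, edgeR adjusted p = 1.53e-06) and -0.30 (SE 0.036, adjusted p = 1.53e-06). AKR1C1 and CBR3 were the 2 called higher, by 0.21 and 0.40.

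Lipid genes were examined in 2 lists. For cholesterol synthesis and uptake, 9 of 25 were called lower and 1 higher, and the median was -0.14. ACAT2, the thiolase that starts the pathway, stood at 6.47, 6.23 and 6.27 CPM in R4KO_1 and 0.0530, 0.214 and 0.214 in R4KO_2. ACAT2 overlaps TCP1 on the other strand, so reads of the 2 cannot be told apart without strand. Its log2 difference was -5.25 (SE 0.25, edgeR adjusted p = 1.16e-12). The mean log2 CPM of the list spread within R4KO_1, and when its replicate 1 was left out 19 members were called lower, against 6 when its replicate 3 was left out. SCD, the desaturase that makes oleate, was at 2362, 2705 and 2835 CPM in R4KO_1 and 1869, 2113 and 2150 in R4KO_2, lower by 0.37. Fatty acid synthesis genes were called in both directions, 4 of 18 higher and 6 lower. ACSL1, ELOVL6 and FADS2 were higher by 0.40, 0.27 and 0.26, and ACACA, the carboxylase that commits carbon to fatty acids, and FADS1 lower by 0.17 and 0.21.

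Cell cycle genes were divided into lists by phase. Of 43 genes of DNA replication and the G1/S step, 16 were called higher and 4 lower, with a median of 0.08. UHRF1, which keeps DNA methylation through replication, was at 135, 135 and 131 CPM in R4KO_1 and 203, 182 and 179.6 in R4KO_2, higher by 0.49 (SE 0.043, edgeR adjusted p = 2.15e-08), and it lies in the chromosome 19 block. GINS1, of the replicative helicase, lies on chromosome 20 and was lower by 0.30. Of 33 homologous recombination and Fanconi genes, 10 were higher and 1 lower, 33.3% called against 31.6% of all tested. FANCA was higher by 0.28 and FANCE lower by 0.24. With 1 library left out, the number called higher ran from 4 to 12. Mitosis genes gave 4 of 41 higher and 9 lower, 31.7% called. AURKA, the spindle kinase on chromosome 20, was at 159.9, 150 and 129 CPM against 106, 101 and 103, lower by 0.50, while KIF2C was higher by 0.27. Outside the blocks, mitosis genes gave 4 higher and 4 lower, and without R4KO_1 replicate 3 they gave 3 higher and 15 lower over all 41. H2BC12, a replication-dependent histone, was at 46.2, 42.6 and 43.2 CPM in R4KO_1 and 26.7, 24.2 and 23.9 in R4KO_2. Of 21 such histones, 5 were lower and 0 higher, 23.8% called.

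Interferon and nucleic acid sensing genes, the pathway that the inhibitors in this series act on, were examined as separate lists. Of 54 interferon-stimulated genes, 8 were called higher and 7 lower, 27.8% in all against 31.6% of all tested, and the median was 0.07. TRIM25, a ubiquitin ligase of RIG-I signalling, stood at 119, 136 and 145 CPM in R4KO_1 and 182, 200.4 and 182 in R4KO_2, higher by 0.50 without overlap. IFITM3, which blocks viral entry, was at 523, 491 and 524 against 422, 379 and 422 CPM, lower by 0.33. The count changed with single libraries. Mean log2 CPM of the list was 5.54, 5.66 and 5.87 in R4KO_1 and 5.62, 5.72 and 5.71 in R4KO_2, so that R4KO_1 held both the lowest and the highest library, and with its replicate 3 left out 24 were called higher and 6 lower. Without its replicate 1 it was 5 and 12, and the median was -0.03.

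Among cytosolic sensors of DNA and RNA, 6 of 19 were higher and 4 lower, 52.6% against 31.6% of all tested, with a median near 0 (0.0008). CGAS, the DNA sensor that makes cGAMP, was at 59.7, 69.9 and 75.5 CPM in R4KO_1 and 87.1, 90.8 and 81.2 in R4KO_2, higher by 0.34 (SE 0.07, edgeR adjusted p = 0.00041). TICAM1 and RNASEH2A, both on chromosome 19, were higher by 0.55 and 0.41, and ZCCHC3 and SAMHD1, both on chromosome 20, lower by 0.27 and 0.22. Outside the blocks 3 of 11 sensors were higher and 1 lower. For MHC class I presentation, 5 of 21 were higher and 4 lower (8 and 4 without R4KO_1 replicate 3, and 3 higher without R4KO_1 replicate 2 or R4KO_2 replicate 3). PDIA3, of the peptide-loading complex, was lower by 0.19. Some members of this list are close relatives, so their counts may be split between them.

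Among other exonucleases, most of the DEDD family like REXO4, and exosome subunits, 7 of 29 were called higher and 3 lower, REXO4 itself not counted. That is 34.5% called, near the 31.6% of all tested, and the median was 0.06. EXOSC6, a core exosome subunit, was at 57.4, 62.8 and 71.0 CPM in R4KO_1 and 91.3, 104 and 97.0 in R4KO_2. The lines did not overlap, and the difference was 0.61 (SE 0.07, edgeR adjusted p = 6.92e-07). XRN2, the nuclear 5′ to 3′ exonuclease, lies on chromosome 20 and was lower by 0.18. R-loop processing genes gave 6 of 33 higher and 5 lower, 33.3% called, with the helicase DDX41 lower by 0.24. Without R4KO_1 replicate 3 they gave 7 and 8. RNA methylation genes gave 3 of 22 higher and 2 lower, 22.7% called and under the share of all tested. HNRNPC was higher by 0.16 and YTHDF1, on chromosome 20, lower by 0.30.

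The other lists are given by count, to be read beside the 31.6% of all tested genes called (15.1% higher, 16.6% lower). Under that share were lysosome and autophagy (30.3%), BCL2 family and death receptors (24.1%), imprinted genes (23.5%), HOX genes (13.8%) and cancer-testis antigens (12.5%). The rest had from 36.4% (proteasome subunits) to 44.0% (TGF-beta and BMP targets) called. Wnt pathway genes were higher in 10 of 29 cases and lower in 2, DKK1, a secreted Wnt inhibitor, by 0.59 and NKD2 by -0.44. Notch genes gave 2 of 19 higher and 5 lower, and HES1, its classic target, stood at 29.7, 35.1 and 36.4 CPM against 18.8, 18.98 and 25.8, lower by 0.67, while MFNG, a glycosyltransferase that tunes Notch, was higher by 0.36. TGF-beta and BMP targets gave 4 of 25 higher and 7 lower: CDKN2B, a cell cycle inhibitor, was higher by 0.52 and ID3 lower by 0.50. Of 24 p53 targets 4 were higher and 6 lower, with GADD45A, a damage-induced protein, at 39.3, 49.6 and 59.2 CPM against 81.0, 104 and 88.3. Glycolysis and hypoxia gave 7 and 8 of 35 (NDRG1 0.65, ENO1 -0.15), proteasome subunits 3 and 9 of 33 (PSMC6 0.15, PSMA7 -0.35), lysosome and autophagy 4 and 6 of 33 (MAP1LC3B 0.49, CTSA -0.42) and BCL2 family and death receptors 5 and 2 of 29 (CASP8 0.29, BOK -0.45). Cadherins and protocadherins gave 4 and 3 of 16 (PCDH1 0.38, FAT1 -0.23), metallothioneins and zinc exporters 1 and 2 of 7 (MT1E 0.30, SLC39A10 -0.33), HOX genes 2 and 2 of 29 (HOXC4 -0.70), imprinted genes 0 and 4 of 17 (GNAS -0.43) and cancer-testis antigens 0 and 1 of 8. Some of these counts moved with 1 library. Without R4KO_1 replicate 3, p53 targets gave 8 higher and 7 lower, BCL2 family genes 10 and 3 and glycolysis 8 and 5. Without R4KO_1 replicate 1, glycolysis gave 4 and 10 and lysosome genes 2 and 11. Cadherins gave 2 higher without R4KO_2 replicate 1. Over all 45 lists, 22 had a positive median.

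**Figure D3:**
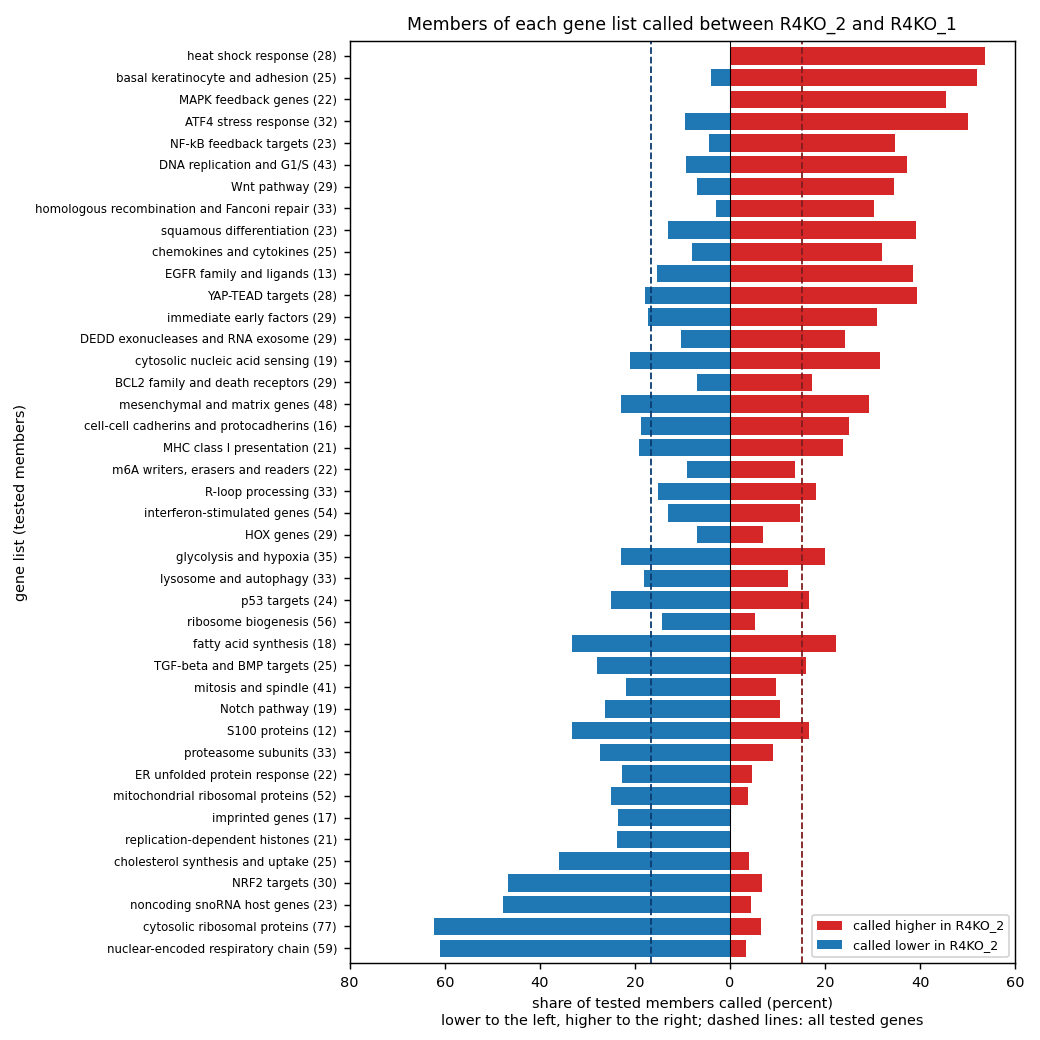
Share of the tested members of each gene list (lists with at least 10 tested members) called higher (right) or lower (left) in R4KO_2 than in R4KO_1; the dashed lines mark all tested genes, 15.1% higher and 16.6% lower. Heat shock, basal keratinocyte and ATF4 genes reach the farthest right, and respiratory chain and ribosomal protein genes the farthest left.

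Part of the difference between the lines followed position on chromosomes. Medians of the log2 difference were taken in windows of 40 consecutive tested genes, and runs of windows past 0.2 in either direction were joined, a description chosen after the data were seen. This gave 8 blocks, 3 higher and 5 lower, with 1150 genes, 8.0% of those on autosomes and X. The blocks had 63.0% of their genes called, against 28.9% outside, and held 15.9% of all calls but 9.8% of those of 2-fold or more. Since they were picked by these same differences, a larger called share inside them was fixed in advance. Outside them 1806 genes were higher and 2010 lower.

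The 2 largest blocks took up the short arm and the first part of the long arm of chromosome 19 and nearly all of chromosome 20. On chromosome 19 from 60951 to 32713796 (GRCh38 positions of GENCODE v29), 297 of 450 genes were called higher and 9 lower, and the median was 0.31, a 1.24-fold level. On chromosome 20 from 270863 to 63980008, 240 of 390 were lower and 7 higher, with a median of -0.28, a 0.822-fold level. The quartiles were 0.17 and 0.42 on chromosome 19 and -0.42 and -0.16 on chromosome 20. The next were 70 genes at the end of chromosome 5 (38 lower, 2 higher, median -0.22), 60 genes farther up chromosome 5 (32 lower, 5 higher, -0.21), 50 genes of chromosome 3 (30 lower, 0 higher, -0.20), 50 and 40 genes of chromosome 4 (medians 0.24 and 0.20) and 40 genes near the end of chromosome 9 (18 lower, 4 higher, -0.20).

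**Figure D4:**
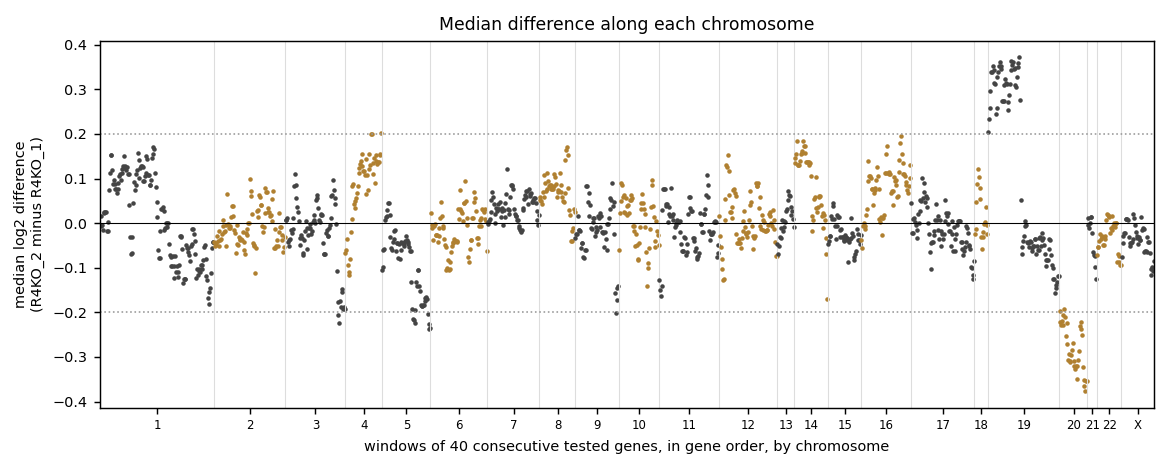
Median log2 difference (R4KO_2 minus R4KO_1) in windows of 40 consecutive tested genes, in gene order along each chromosome; dotted lines mark 0.2 and -0.2. Windows of the first part of chromosome 19 lie above 0.2 and those of chromosome 20 around -0.28, while most others lie between the dotted lines.

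Relative to the mean of the Ctrl libraries, the chromosome 20 genes stood at 0.24, 0.24 and 0.28 in the R4KO_1 libraries (median log2 level) and at -0.03, -0.01 and -0.03 in those of R4KO_2. On this chromosome R4KO_2 was thus within 0.03 of Ctrl and R4KO_1 above it. The chromosome 19 genes were at -0.23, -0.22 and -0.16 in R4KO_1 and at 0.09, 0.07 and 0.07 in R4KO_2, so that the lines lay on either side of Ctrl, whose 3 libraries ran from -0.04 to 0.06. The 3 vehicle libraries of the other SCC1 experiment in the series stood at 0.20 to 0.21 on chromosome 20, nearer to R4KO_1, and at 0.15 to 0.17 on chromosome 19, above R4KO_2. DNA copy number was not analysed here. Outside the blocks, R-loop genes gave 4 higher and 2 lower, DNA replication genes 13 and 2 and imprinted genes 0 and 1, besides the lists given above. The 15 heat shock calls became 14 of 26 outside the blocks, and the 36 lower respiratory chain calls 33 of 53.

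**Figure D5:**
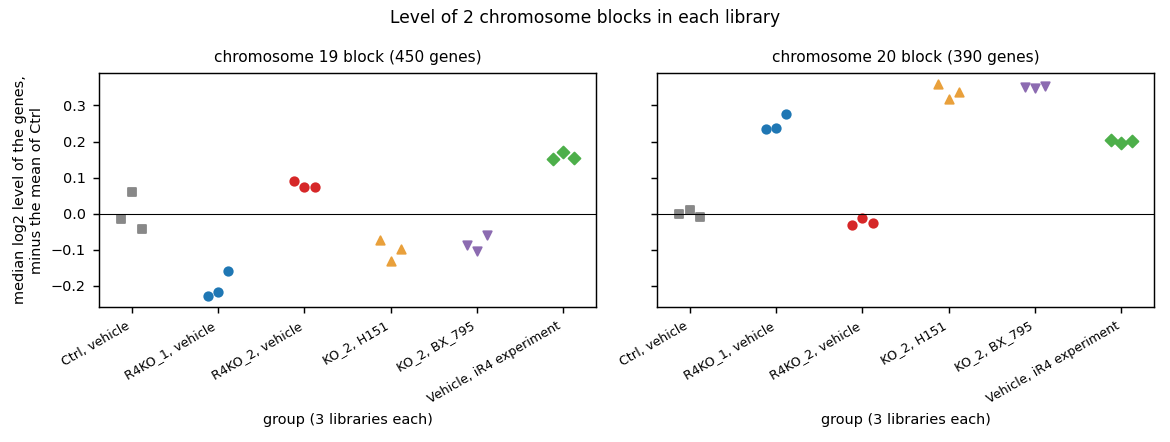
Median log2 level of the genes of the chromosome 19 block (450 genes) and of the chromosome 20 block (390 genes) in each library, relative to the mean of the 3 Ctrl libraries; each point is a library. On chromosome 20 the drug-treated KO_2 libraries (0.32 to 0.36) lie on the side of R4KO_1 (0.24 to 0.28) and apart from R4KO_2 (-0.03 to -0.01).

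The libraries labelled KO_2 and given H151 or BX_795 differed from R4KO_2 vehicle in these features. On chromosome 20 they stood at 0.32 to 0.36 with H151 and at 0.35 in all 3 with BX_795. On chromosome 19 they stood at -0.13 to -0.07 and at -0.10 to -0.06, between the 2 lines. The same held for many single genes. PXDN was at 10.98 CPM with H151 and 12.6 with BX_795, near the 8.21 of R4KO_1 and not the 0.142 of R4KO_2, and PSTPIP2 at 8.99 and 9.77. MYL9, ZNF736 and ZNF100, at 3 counts or fewer in R4KO_2, had 206, 189 and 111 counts with H151. Of the 187 genes lower by 2-fold or more in R4KO_2, 123 (65.8%) were nearer to R4KO_1 than to R4KO_2 in the H151 group and 129 (69.0%) in the BX_795 group. Of the 140 higher genes, these were 110 (78.6%) and 106 (75.7%). HSPA6, at 1.47 and 1.45 CPM, was close to the 1.38 of Ctrl in both. ESM1 went against this, at 8.85 and 9.39 CPM, above R4KO_2 itself. REXO4 matched neither line, at 18.07 CPM with H151 and 19.05 with BX_795. These levels were above R4KO_1 (9.58) and R4KO_2 (6.40) and under Ctrl (74.99). The genes above were chosen because they separate the 2 lines. Over all tested genes, the median root mean square log2 difference of the H151 libraries was 0.713 from R4KO_1, 0.800 from R4KO_2 and 0.556 from Ctrl. For BX_795 these distances were 0.717, 0.804 and 0.590. Both groups were thus far from both lines, and nearest to Ctrl among the vehicle groups. The labels do not say that KO_2 is the line R4KO_2, and whether these libraries come from R4KO_2, from R4KO_1 or from another line was not settled here. Line, drug, depth (21.4 to 27.9 M counts) and culture cannot be told apart in these groups.

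The 2-fold genes were also set beside Ctrl, which both lines were compared with. Of the 140 genes higher in R4KO_2, Ctrl was nearer to R4KO_1 in 107, 76.4%, and of the 187 lower genes, Ctrl was nearer to R4KO_1 in 47, 25.1%. For both sets R4KO_2 and R4KO_1 share the same 3 Ctrl libraries. The median log2 CPM of the 140 genes was -0.13 in R4KO_1, 1.11 in R4KO_2 and -0.28 in Ctrl, and that of the 187 genes 0.89, -0.71 and -0.44. The typical gene of both sets was thus expressed at a low level. In most of the higher genes R4KO_2 was thus the line farther from control cells, and in most of the lower genes R4KO_1 was.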

How the data were processed

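RNA was measured by poly(A) sequencing, with raw counts per gene deposited by the authors for each library, 37994 lines and 35135 Ensembl IDs per SCC1 library after merging repeated IDs. The submitters' processing notes name HISAT2 2.2.1 and featureCounts 2.0.1, besides Trim Galore 0.6.4, DESeq2 1.42.0 and FastQC 0.11.9, with hg38 as human build. For the annotation and strand setting, not given in the sources used here, no assumption was made. The labels give the molecule as genomic DNA, while the protocol describes RNA. All 35135 IDs were matched to gene names and to GENCODE v29 positions.

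Genes passing filterByExpr (minimum count 10) in the 15 libraries of the knockout experiment were fitted by group with edgeR 4.0.16 in R 4.3.3 (TMM scaling, quasi-likelihood F test) with Benjamini-Hochberg adjustment at 0.05 over all 14348 genes. The 5 groups share 1 estimate of spread. Depth in the 6 libraries compared was 17.47 to 17.69 M counts. Counting intervals are at the 0.95 level and floors are 3 counts. These cover counting error only.

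Genes were named by rule. The rule took REXO4, the 12 largest differences in each direction (adjusted p under 0.05, average log2 CPM of at least 2, no overlap), and up to 6 in each direction with 3 counts or fewer in 1 line. From each list it took up to 3 or up to 1 called members per direction. This gave 156 genes, of which some are not reported here. The list members, the rule and the 45 gene lists were chosen with earlier results of these data known. Of the named genes, 54 overlap a gene on the other strand.

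On simulated counts (14257 genes, 50 changed at each fold), edgeR recovered 56%, 76%, 90% and 94% of genes changed by 1.25-, 1.5-, 2- and 4-fold, with 14 false calls. Far fewer genes were changed there than the 31.6% called in the data, and each gene was drawn independently. Deviations shared by many genes of a library were not simulated, so the number of false calls does not carry over to the real libraries. Alternatives tried were 3 other scalings, DESeq2 1.42.0, 2 count filters, 3 other sets of libraries, robust dispersion, a minimum fold of 1.5, a replicate block and each of the 6 libraries left out.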

Additional observations from a re-analysis of the deposited data

Results flagged for a closer look

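Among the named genes reported here, 21 were called against Ctrl in opposite directions in the 2 lines, and the difference between the lines, which is itself the test of the contrast (edgeR, adjusted p under 0.05), was called as well. Both contrasts share the 3 Ctrl libraries, and they were not repeated with a library left out. Some calls against Ctrl were near the threshold. The edgeR adjusted p in R4KO_1 was 0.0427 for ERRFI1, 0.0384 for FOSL1, 0.0276 for COL17A1, 0.0448 for DUSP2 and 0.042 for NDUFB5. In R4KO_2 it was 0.0455 for NELL2. In 10 of the 21 genes R4KO_2 was the higher line and in 11 the lower, and values are log2 differences. Apart from REXO4, the 156 genes were named for a difference between the lines, which favours opposite directions. The share of opposite calls over all tested genes was not counted, so 21 does not show how common they are.

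Of those higher in R4KO_2, the largest with measurable levels in both lines was SERPINB2 at 2.77 (-1.66 in R4KO_1 and 1.11 in R4KO_2 against Ctrl). The surface and secreted proteins included IL20RB at 1.86 (-0.56 in R4KO_1 and 1.30 in R4KO_2 against Ctrl), CPA4 at 1.40 (-0.90 in R4KO_1 and 0.50 in R4KO_2 against Ctrl) and AREG at 1.02 (-0.74 in R4KO_1 and 0.28 in R4KO_2 against Ctrl). Growth factor-induced genes were ERRFI1 at 1.08 (-0.24 in R4KO_1 and 0.84 in R4KO_2 against Ctrl), PHLDA1 at 1.10 (-0.63 in R4KO_1 and 0.46 in R4KO_2 against Ctrl) and FOSL1 at 1.04 (-0.45 in R4KO_1 and 0.59 in R4KO_2 against Ctrl). In R4KO_1 replicate 3, however, ERRFI1 (93.24 CPM) and FOSL1 (81.5) were above every Ctrl library (84.5 to 93.13 and 67.9 to 73.5). Adhesion and junction genes were COL17A1 at 0.42 (-0.10 in R4KO_1 and 0.33 in R4KO_2 against Ctrl) and AMOTL1 at 0.43 (-0.13 in R4KO_1 and 0.30 in R4KO_2 against Ctrl). For LINC00839 at 7.27 (-5.52 in R4KO_1 and 1.75 in R4KO_2 against Ctrl), R4KO_1 had 0 counts, so the fitted value depends on the prior count.

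Of those lower in R4KO_2, several had a few counts there. These were ZNF736 at -6.23 (3.14 in R4KO_1 and -3.09 in R4KO_2 against Ctrl), MYL9 at -5.95 (1.78 in R4KO_1 and -4.17 in R4KO_2 against Ctrl), ZNF100 at -5.58 (2.24 in R4KO_1 and -3.34 in R4KO_2 against Ctrl) and ACAT2 at -5.25 (3.403 in R4KO_1 and -1.85 in R4KO_2 against Ctrl). With higher levels in R4KO_2 there were EVA1C at -2.06 (1.09 in R4KO_1 and -0.97 in R4KO_2 against Ctrl), NELL2 at -1.84 (1.52 in R4KO_1 and -0.32 in R4KO_2 against Ctrl) and LAPTM5 at -1.57 (0.86 in R4KO_1 and -0.71 in R4KO_2 against Ctrl). Smaller differences were found for H2BC12 at -0.82 (0.23 in R4KO_1 and -0.59 in R4KO_2 against Ctrl), DUSP2 at -0.67 (0.18 in R4KO_1 and -0.48 in R4KO_2 against Ctrl), NDUFB5 at -0.37 (0.11 in R4KO_1 and -0.26 in R4KO_2 against Ctrl) and GINS1 at -0.30 (0.16 in R4KO_1 and -0.14 in R4KO_2 against Ctrl). NDUFB5 and GINS1 lie in the blocks of lower genes on chromosomes 3 and 20.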

How the results depend on the processing

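Counts of called genes stayed within 1.5 times the reported 4540 in 17 of 18 settings, from 3634 (only the 6 libraries) to 4856 (all 24 SCC1 libraries), and DESeq2 gave 3817. With a minimum fold of 1.5 tested, 64 genes were higher and 119 lower, of which 56 and 106 differed by 2-fold or more. The cause is the construction of that test. Leaving out each library gave 3692 to 4663 calls. Library totals without TMM made 55.3% of calls higher, against 47.6%. Outside the 8 chromosome blocks, a restriction chosen after the data were seen, calls numbered 1806 higher and 2010 lower, with 129 and 166 past 2-fold.

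With the replicate block 4404 genes were called, 4349 of them among the 4540. Same-numbered libraries deviated together with r = 0.40, -0.108 and -0.023 over 8744 genes, so the numbers do not pair the libraries.

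Over 18 settings the 156 named genes gave no reversed direction, and 44 kept their call throughout. The median of the RNA methylation list, 0.02, became -0.0032 without R4KO_1 replicate 2 (0.030 without R4KO_2 replicate 3), and the cause was not tested. YAP-TEAD and interferon medians also changed sign (-0.03 to 0.10 and -0.03 to 0.15). So did those of further lists with medians near 0. Among them were nucleic acid sensing (-0.012 to 0.024), p53 targets (-0.040 to 0.019) and ribosome biogenesis (-0.037 to 0.0027). At about 17.5 M counts, genes of a few counts per line have wide intervals.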
